A study of Sus scrofa with 4 samples.

Results

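The HES and HEY family of transcriptional repressors was represented by 10 genes, HES1, HES2, HES4, HES5, HES6, HES7, HEY1, HEY2, HEYL and BHLHE40, each matched by its name to 1 of 35248 rows in the deposited table. The family was selected on the measured level of HES2, which stood higher with Bobcat339 than in the control, so the HES2 difference between the groups is a description here and carries no test. The other 9 members came with it by name. The table assigns all 10 to the transcription factor family bHLH, together with 93 other rows. Its Gene Ontology terms mark 8 members as repressors or negative regulators of transcription and 6 as Notch related, and HES2 is among neither.

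HES and HEY genes encode basic helix-loop-helix (bHLH) proteins that bind DNA and repress transcription. In the Notch pathway, a ligand on 1 cell triggers cleavage of a NOTCH receptor on its neighbour. The released receptor fragment joins the DNA-binding protein RBPJ and switches on target genes, of which HES and HEY genes are the best known. Their products recruit corepressors of the TLE (Groucho) family and hold back differentiation genes, and several of them also repress their own transcription. BHLHE40, also called DEC1, is a related bHLH repressor of the circadian clock.

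The embryos were porcine parthenogenotes, which start from an oocyte activated by an electric pulse and carry no paternal genome. All of them were held with cytochalasin B for 3 h after activation, grown for 48 h in PZM-3 with serum albumin, and taken at the 4-cell stage. In the Bobcat339 group (n = 2 libraries) they were treated with 50 µM Bobcat339, a small molecule used to inhibit the TET enzymes that oxidise methylated cytosine in DNA. The control group (n = 2 libraries) received DMSO, for which the labels give the same 50 µM. Strain, age of the donors and embryos per library are not given in the sources used here.

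The libraries held 14681221 and 13568525 counts with Bobcat339, and 14390560 and 13852262 counts in the control. Given as CPM, that is, counts relative to library size, the floor of 3 counts was 0.204 to 0.221. A gene with 0 counts may lie anywhere under this floor, which covers counting error only. Of 14 oocyte and embryo markers, 11 were in the table, and their levels ranged widely. BMP15 was the most abundant, at 2873 and 3627 FPKM with Bobcat339 and 3191 and 3467 FPKM in the control. ZAR1 was the least abundant, at 0.72 and 0.33 FPKM with Bobcat339 and 0.47 and 0.98 FPKM in the control. FPKM is the count scaled to gene length and library depth. Of 17 markers of cumulus and granulosa cells, the cells that surround the oocyte, 16 were in the table and 11 were tested. Their summed level was 130 and 163 CPM with Bobcat339 and 136 and 146 CPM in the control. The most abundant per length were FST, with 156 and 184 counts with Bobcat339 and 123 and 111 counts in the control, VIM, with 403 and 747 counts with Bobcat339 and 614 and 465 counts in the control, and VCAN, with 1086 and 1020 counts with Bobcat339 and 806 and 1146 counts in the control. Embryos may express these 3 genes too. Among the other markers, FSHR, INHA and LHCGR had at most 2 counts in any library, and CYP19A1 at most 16. Others were detected: STAR had 80 and 62 counts with Bobcat339 and 126 and 67 counts in the control. AMHR2 had 23 and 22 counts with Bobcat339 and 16 and 24 counts in the control. Whether RNA of these cells was present was not tested. The labels do not say that replicates came from separate cultures, so a p-value measures only the spread between these libraries, which may be technical.

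Transcripts of 5 members had a mean above 1 FPKM and those of the other 5 lay below it. In order of mean FPKM over the 4 libraries, HEY1 (22.9), HEY2 (19.7), HES6 (14.4), HES2 (7.57) and HES1 (6.12) stood apart from HEYL (0.656), BHLHE40 (0.320), HES4 (0.128), HES7 (0.0523) and HES5 (0). The lowest HES1 library, at 3.04 FPKM, lay above the highest HEYL library, at 1.158 FPKM, and this was the only gap between neighbours in the order: every other neighbouring pair overlapped in its range over the 4 libraries, down to HES5 at 0 throughout. HEY1 exceeded 90.9% and HEY2 89.8% of the 30007 rows with at least 1 read. Among the 103 bHLH rows HEY1 ranked 6, HEY2 8, HES6 11, HES2 14 and HES1 15 by mean FPKM. The place of HES2 above HES1 came from the Bobcat339 libraries, where the means were 11.9 FPKM for HES2 and 7.25 FPKM for HES1, while in the control they were 3.20 FPKM for HES2 and 4.99 FPKM for HES1.

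**Figure D1:**
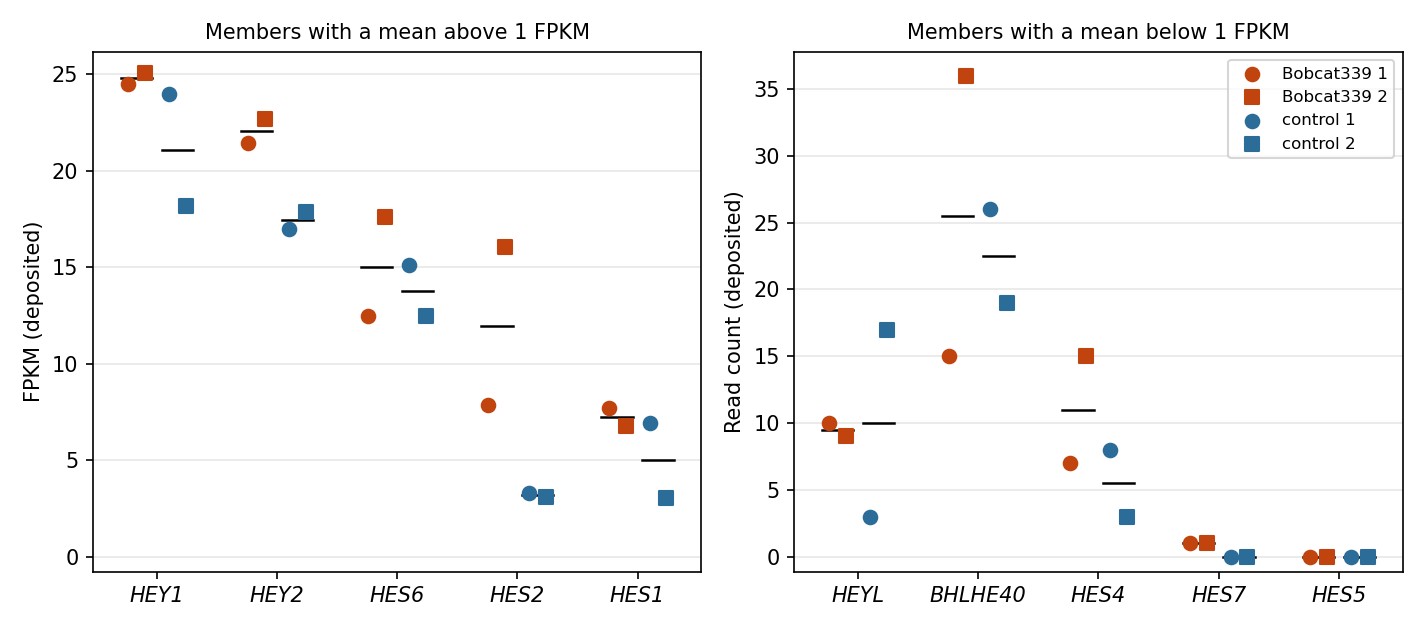
Level of each member in the 4 libraries, Bobcat339 (orange) left of control (blue), circles for replicate 1, squares for replicate 2 and black lines for the mean of each pair. The left panel gives FPKM for the 5 members with a mean above 1 FPKM and the right panel gives read counts for the other 5. HES2 stood at 7.83 and 16.0 FPKM with Bobcat339 and at 3.29 and 3.11 FPKM in the control.

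HES2 (ENSSSCG00000034297, chromosome 6: 67276777 to 67279603, minus strand) is a little studied member of the hairy and enhancer of split group. It had 272 and 515 counts in Bobcat339 libraries 1 and 2, and 112 and 102 counts in control libraries 1 and 2. On the CPM scale, normalised with edgeR's trimmed mean of M-values (TMM), it stood at 18.5 and 37.4 with Bobcat339 and 8.004 and 7.28 in the control. Both Bobcat339 libraries were above both controls, the lower of them 2.31-fold above the higher control. The means were 27.9 ± 13.4 CPM with Bobcat339 and 7.64 ± 0.51 CPM in the control (SD, n = 2 each), a fitted log2 fold change of 1.87. The 2 control libraries were nearly equal, whereas Bobcat339 library 2 was 2.02-fold above Bobcat339 library 1. Without Bobcat339 library 2 the log2 fold change was 1.32, and without Bobcat339 library 1 it was 2.28. Of the 11 tested markers of cumulus and granulosa cells, 4 had a fold change above 0 and 7 below, with a median log2 value of −0.15. FST had both Bobcat339 libraries above both controls and TNFAIP6 both below (7 and 4 counts with Bobcat339, 24 and 22 counts in the control), where 13.3% of all tested genes lay above and 16% below in this way. TNFAIP6, counted among the 7 below 0, had enough reads for the test only through the controls. Its direction is therefore tied to having been tested. FOXL2, untested and like TNFAIP6 named after its values were seen, had 1 and 6 counts with Bobcat339 and 0 in each control. The part of these markers in the HES2 difference was not tested.

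No other row of the table overlapped HES2, and the only row within 5000 bases was ESPN, on the other strand and 4674 bases away. ESPN, which encodes an actin-bundling protein, had 1 and 6 counts with Bobcat339 and 1 and 2 counts in the control. HES4 and HES5 lie on the same chromosome as HES2, on its left, with 1.05 Mb between HES4 and HES5 and 2.87 Mb between HES5 and HES2. HEYL is also on chromosome 6, 28.2 Mb to the right. The shared chromosome did not come with shared levels: HES5 was at 0 in all 4 libraries, and HES4 never passed 15 counts.

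HES2 took a larger part of the family's transcripts with Bobcat339. It made up 10.45% and 17.9% of the summed FPKM of the 10 members in the Bobcat339 libraries, and 4.92% and 5.55% in the controls. In Bobcat339 library 2 HES2 was at 2.36 times the FPKM of HES1, and in Bobcat339 library 1 at 1.017 times. In control 1 the same ratio was 0.474 and in control 2 it was 1.025, so this ratio overlapped between the groups. The ratio of HES2 to HES6 did not overlap, at 0.629 and 0.912 with Bobcat339 and 0.218 and 0.250 in the control. These shares and ratios all contain the HES2 values on which the family was picked.

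**Figure D2:**
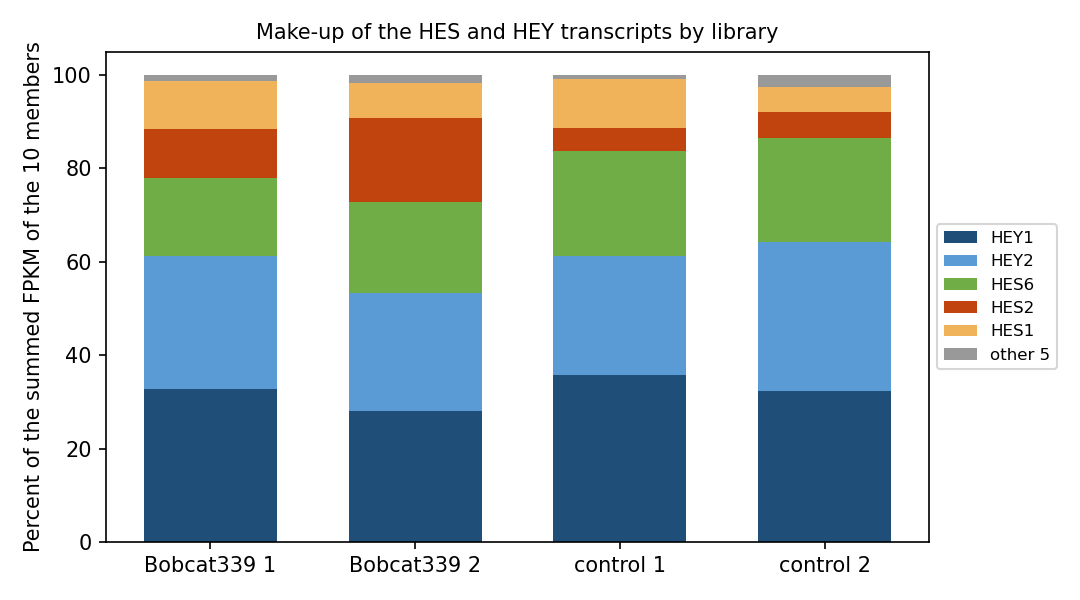
Share of each member in the summed FPKM of the 10 members, 1 bar per library, Bobcat339 left of control. HEY1 and HEY2 together made up 61.3% and 53.25% with Bobcat339 and 61.2% and 64.2% in the control, and HES2 10.45% and 17.9% with Bobcat339 and 4.92% and 5.55% in the control.

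Of the 10 members, 6 had enough reads to be tested: HES1, HES2, HES6, HEY1, HEY2 and BHLHE40. In the edgeR quasi-likelihood test, with Benjamini-Hochberg adjustment at 0.05 over 18481 genes, 0 of the 6 passed, beside 0% of all genes. Before adjustment 740 of all genes had a p under 0.05. DESeq2 called 5 of 30007 genes (0.0167%), all higher. The count was also 0 with limma-voom, where 646 genes had an unadjusted p under 0.05. The edgeR count changed with either control left out, for a cause not tested, but not with either Bobcat339 library left out. Without control 1 it was 586 genes, with 2.03% of the tested genes called higher, and without control 2 it was 494 genes, with 0.74% called higher. HES1 was called without control 1. HES2 was among the calls of DESeq2, of both fits without a control and of a fit with the replicate number as a block, which called 0.124% of genes higher. As HES2 was picked for its difference in these libraries, those calls repeat the choice and support nothing. The other 4 members, HES4, HES5, HES7 and HEYL, did not pass the filter on low counts.

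HEY1 (ENSSSCG00000006159, chromosome 4: 56859606 to 56866039, plus strand) and HEY2 (ENSSSCG00000004223, chromosome 1: 37217756 to 37231384, minus strand) are known as Notch targets in the heart and vessels. HEY1 stood at 24.5 and 25.1 FPKM with Bobcat339, and at 23.98 and 18.1 FPKM in the control. Control 2 alone was low, and control 1 came close to the Bobcat339 libraries. In FPKM both Bobcat339 libraries were just above control 1. On the CPM scale control 1, at 118.8, lay between Bobcat339 library 1, at 117.7, and Bobcat339 library 2, at 119.0, so the groups overlapped on that scale. The log2 fold change of HEY1 was 0.21 (95% interval −0.39 to 0.80; edgeR adjusted p = 0.999), and 0.03 without control 2.

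HEY2 stood at 21.4 and 22.7 FPKM with Bobcat339, and at 17.0 and 17.9 FPKM in the control. Its replicates were close in both pairs: the libraries of a pair differed by 0.06 log2 CPM with Bobcat339 and 0.02 in the control, where the median absolute difference over all tested genes was 0.27 and 0.50. Both Bobcat339 libraries were above both controls. The log2 fold change was 0.31 (95% interval −0.27 to 0.89; edgeR adjusted p = 0.999), and it stayed between 0.31 and 0.35 when each library was left out. On the CPM scale HES2, which was picked for standing higher with Bobcat339, and HEY2 were the 2 tested members whose groups did not overlap. Of all tested genes, 13.3% had both Bobcat339 libraries above both controls and 29.3% did not overlap in either direction.

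HEY1 exceeded HEY2 in every library, by 1.14 and 1.11 times in FPKM with Bobcat339 and by 1.41 and 1.02 times in the control. HEYL (ENSSSCG00000038956, chromosome 6: 95445150 to 95453073, minus strand), the third HEY gene, had 10 and 9 counts with Bobcat339, against 3 and 17 counts in the control. Its highest and lowest libraries were both controls. The deposited FPKM of HEYL rests on a length of 1060 bases, shorter than the 1986 bases the table lists, whereas in the other 8 members with reads the 2 lengths agreed within 1%.

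HES1 (ENSSSCG00000031356, chromosome 13: 131135530 to 131140304, plus strand) is the classical Notch target, whose protein represses its own gene and oscillates in mouse cells. HES1 had 422 and 344 counts with Bobcat339, against 373 and 157 counts in the control. Most libraries stood close together, at 28.7 and 25.0 CPM with Bobcat339 and 26.7 CPM in control 1, but control 2 stood apart at 11.2 CPM. The log2 fold change was 0.50 (95% interval −0.30 to 1.31; edgeR adjusted p = 0.999). Without control 1 it became 1.26 (edgeR adjusted p = 0.0041), in a fit that called 2.03% of all genes higher and assumed that the lone control varies like the Bobcat339 pair. Without control 2 it was 0.04.

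HES6 (ENSSSCG00000016342, chromosome 15: 137785761 to 137787694, minus strand) differs from its relatives in that the mouse protein antagonises HES1. HES6 stood at 12.5 and 17.6 FPKM with Bobcat339, and at 15.1 and 12.5 FPKM in the control. The highest library was Bobcat339 2, and Bobcat339 1 and control 2 were nearly equal, so the groups overlapped. Its log2 fold change was 0.10 (95% interval −0.60 to 0.79; edgeR adjusted p = 0.999), and −0.12 without Bobcat339 library 2 or −0.04 without control 2.

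BHLHE40 (ENSSSCG00000036136, chromosome 13: 61525926 to 61535671, plus strand) had 15 and 36 counts with Bobcat339, against 26 and 19 counts in the control. The Bobcat339 libraries held both its lowest and its highest value. The log2 fold change was 0.17 (95% interval −1.09 to 1.43; edgeR adjusted p = 0.999), and it was −0.60 without Bobcat339 library 2 and −0.02 without control 2.

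HES4, HES7 and HES5 were hardly seen. HES4 (chromosome 6: 63351598 to 63356478, minus strand), a gene that mice lack, had 7 and 15 counts with Bobcat339 and 8 and 3 counts in the control. HES7 (chromosome 12: 53334901 to 53337376, minus strand), which drives the segmentation clock in mouse embryos, had 1 count in each Bobcat339 library and 0 in each control. HES5 (chromosome 6: 64409831 to 64410496, minus strand), a Notch target of neural progenitors, had 0 counts in all 4 libraries. These counts are at or below 3 for HES7 and HES5, so no fold is given. The row next to HES7, 3952 bases away on the same strand, is the clock gene PER1, at 20.1 and 24.4 FPKM with Bobcat339 and 25.0 and 26.8 FPKM in the control.

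**Figure D3:**
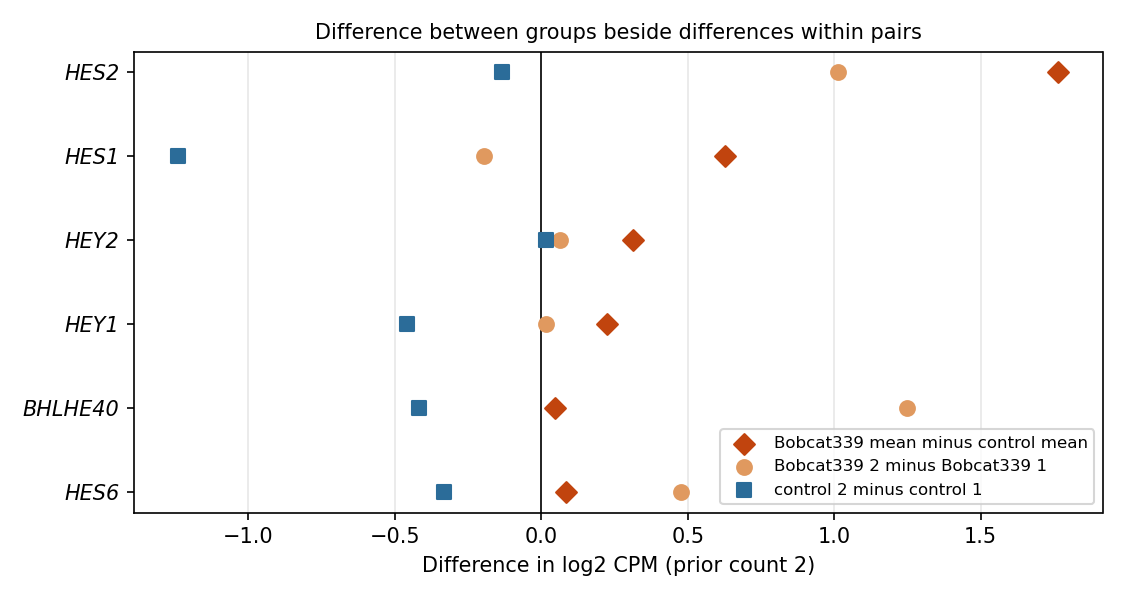
Differences in log2 CPM for the 6 tested members. Diamonds give the Bobcat339 mean minus the control mean, orange circles Bobcat339 library 2 minus library 1 and blue squares control 2 minus control 1. For HES2 the group difference of 1.77 was larger than the pair differences of 1.01 and −0.13; for HES1 the control pair differed by −1.24, more than the groups at 0.63.

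The difference between the groups exceeded the differences within both pairs in HES2, which was picked for it, and in HEY2. For HEY2 it was 0.31 log2 CPM, against 0.06 and 0.02 within the pairs. The share of all tested genes for which this holds was not computed. In HES1 and HEY1 the control pair differed by more than the groups did, and in HES6 and BHLHE40 both pairs did. For BHLHE40 the Bobcat339 pair differed by 1.25 log2 CPM, against 0.05 between the group means. Over all tested genes the median absolute difference was 0.23 between the groups, 0.27 within the Bobcat339 pair and 0.50 within the control pair. Bobcat339 library 2 was the highest of the 4 libraries for HES2. Its part in the HES2 difference was not tested beyond leaving it out.

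The summed FPKM of the 10 members was 75.0 and 89.6 with Bobcat339 and 66.9 and 56.1 in the control. Without HES2 the other 9 members summed to 67.1 and 73.6 FPKM with Bobcat339 and 63.7 and 53.0 FPKM in the control. The groups did not overlap in either sum, and the sums were not tested. Of all tested genes taken singly, 13.3% had both Bobcat339 libraries above both controls and 29.3% did not overlap in either direction. Those shares are in CPM, so they are not a like measure for sums in FPKM. The first sum contains HES2, and HEY1 and HEY2 together made up 53.25% to 64.2% of it, so the sums say little about the other members. The 6 tested members had a median log2 fold change of 0.26 and all 6 were above 0, where all 18481 tested genes had a median of −0.02 and 8700 were above 0. The 61 tested bHLH rows had a median of 0.11 with 34 above 0. The shared sign of the 6 members depended on control 2. Without it the log2 fold changes were 0.04 for HES1, 0.03 for HEY1, −0.04 for HES6 and −0.02 for BHLHE40. HEY2 was then at 0.35 and HES2, picked for its difference, at 1.82. The 6 are those with enough reads, HES2 included, and in bulk embryos fewer expressing cells and less RNA per cell cannot be told apart.

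**Figure D4:**
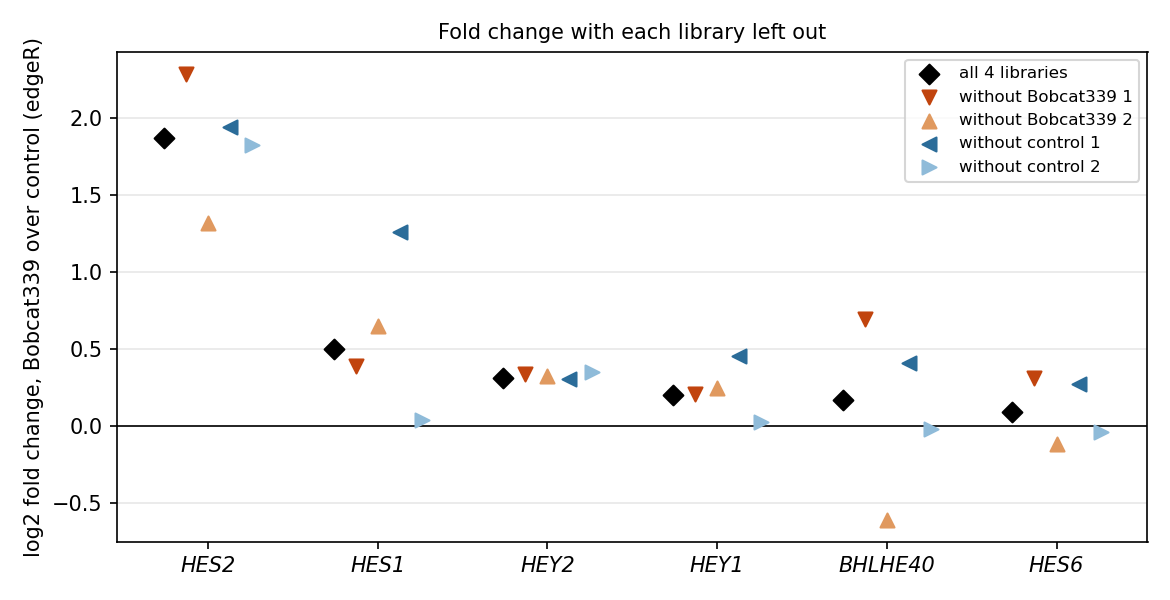
Log2 fold change of Bobcat339 over control for the 6 tested members, with all 4 libraries (black diamonds) and with each library left out. HES2 ranged from 1.32 to 2.28 and HEY2 from 0.31 to 0.35, both above 0 throughout, while HES6 and BHLHE40 took both signs. The groups of HES2 and HEY2 did not overlap in CPM, so leaving out 1 library could hardly change their sign. HES2 was also picked on this contrast.

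The pattern of each member over the 4 libraries was set beside that of 11261 other genes with a symbol and a mean of at least 1 CPM. Likeness was measured as the Euclidean distance between log2 CPM profiles centred on their own means, a description over only 4 libraries. The genes nearest to HES2 were the sulfotransferase gene CHST8 (distance 0.207), the neurofilament gene NEFM (0.216) and the epithelial ETS factor ELF3 (0.366). CHST8 stood at 21.0 and 36.0 CPM with Bobcat339 and 8.15 and 8.28 CPM in the control. NEFM stood at 9.31 and 21.2 CPM with Bobcat339 and 3.64 and 3.85 CPM in the control. ELF3 was lower, at 2.24 and 3.34 CPM with Bobcat339 and 0.786 and 0.785 CPM in the control. In all 3 genes, as in HES2, the controls nearly coincided and Bobcat339 library 2 was highest. This follows from their choice by likeness to HES2 and is no separate result.

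The nearest genes of the other 5 tested members lay at distances of 0.020 to 0.116. Profiles were not scaled, so distances grow with the spread of a member over the libraries and are not comparable between members. EIF3A, TSPAN12 and LPIN1 were nearest to HES1 (0.115 to 0.118), and all 3 shared its low control 2, which again follows from the choice. EIF3A, a translation initiation factor subunit, stood at 328 and 257 CPM with Bobcat339 and 289 and 126 CPM in the control. GSAP, HNRNPDL and IRS1 were nearest to HEY1 (0.027 to 0.035), HSPH1, EOGT and TSPAN9 to HEY2 (0.032 to 0.037), and ARMC7, TPMT and PSRC1 to HES6 (0.020 to 0.044). EOGT, near HEY2, encodes a glycosyltransferase that modifies EGF repeats such as those of NOTCH receptors. It stood at 33.7 and 34.2 CPM with Bobcat339 and 26.65 and 27.4 CPM in the control. FAM105A, PLEKHA8 and ENG were nearest to BHLHE40 (0.116 to 0.128).

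The upstream part of the Notch pathway was unevenly transcribed. Among ligands, JAG1 was the most abundant, at 13.5 and 14.8 FPKM with Bobcat339 and 9.43 and 13.9 FPKM in the control. Next was DLL3, a ligand that inhibits Notch within its own cell in mouse, at 0.803 and 0.553 FPKM with Bobcat339 and 0.745 and 0.851 FPKM in the control. Of 7 ligand genes 5 were tested and 0 were called, 1 having a log2 fold change above 0 and 4 below (median −0.16), with JAG1 at 0.26 and DLL3 at −0.25.

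The receptors were much lower than the HEY genes per length. NOTCH2 stood at 0.442 and 0.535 FPKM with Bobcat339, against 1.06 and 0.705 FPKM in the control, both Bobcat339 libraries being lower. NOTCH4 had 0.0456 and 0.172 FPKM with Bobcat339, against 0.198 and 0.157 FPKM in the control. NOTCH1, named after its values were seen, had 11 and 8 counts with Bobcat339, against 23 and 23 counts in the control. NOTCH3 stayed at 9 counts or fewer and was not tested. Of the 3 tested receptors 0 were called, with log2 fold changes of −0.89 for NOTCH2 (95% interval −1.69 to −0.08), −0.74 for NOTCH4 and −1.29 for NOTCH1. NOTCH1 and NOTCH4 had enough reads for the test only through the controls, so their direction is partly tied to having been tested.

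Enzymes that modify and cleave NOTCH were well represented. APH1B, a subunit of the γ-secretase complex, stood at 49.2 and 58.2 FPKM with Bobcat339 and 38.0 and 54.0 FPKM in the control. Of 14 genes 11 were tested and 0 called, 6 above 0 and 5 below, with a median log2 fold change of 0.03, and APH1B at 0.20.

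Among 14 regulators of ligand and receptor trafficking, 12 were tested and 0 called, 6 above 0 and 6 below (median 0.005). The ubiquitin ligases ITCH (−0.02) and NEURL1 (0.08) were the most abundant. DTX1, a NOTCH regulator that is itself a Notch target and was named after its values were seen, had 11 and 16 counts with Bobcat339, against 2 and 3 counts in the control. Its groups did not overlap and its log2 fold change was 2.36 (95% interval 0.52 to 4.202), which did not pass over all genes. It had enough reads for the test only through the Bobcat339 libraries, so its direction is tied to having been tested.

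RBPJ, the DNA-binding hub of the pathway, was abundant, at 105 and 113 FPKM with Bobcat339 and 107 and 116 FPKM in the control (log2 fold change −0.06, 95% interval −0.54 to 0.43). The coactivator SNW1 stood at 145 and 145 FPKM with Bobcat339 and 132 and 130 FPKM in the control (0.12). Of 17 genes of the RBPJ complexes 16 were tested and 0 called, 7 above 0 and 9 below, with a median of −0.03.

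Corepressors used by HES and HEY proteins were led by SIN3A, at 194 and 182 FPKM with Bobcat339 and 142 and 202 FPKM in the control. The deacetylase HDAC1 stood at 22.2 and 28.2 FPKM with Bobcat339 and 19.8 and 19.5 FPKM in the control. Of 9 corepressor genes found, 8 were tested and 0 called, 2 above 0 and 6 below (median −0.06), with SIN3A at 0.11 and HDAC1 at 0.34. The Groucho genes TLE1, TLE2, TLE3 and TLE4, named after their values were seen, all had both Bobcat339 libraries below both controls. TLE3 had the largest fold change of the 4, with 140 and 146 counts with Bobcat339, against 312 and 187 counts in the control (log2 fold change −0.825, 95% interval −1.58 to −0.07). Of all tested genes, 16% had both Bobcat339 libraries below both controls.

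**Figure D5:**
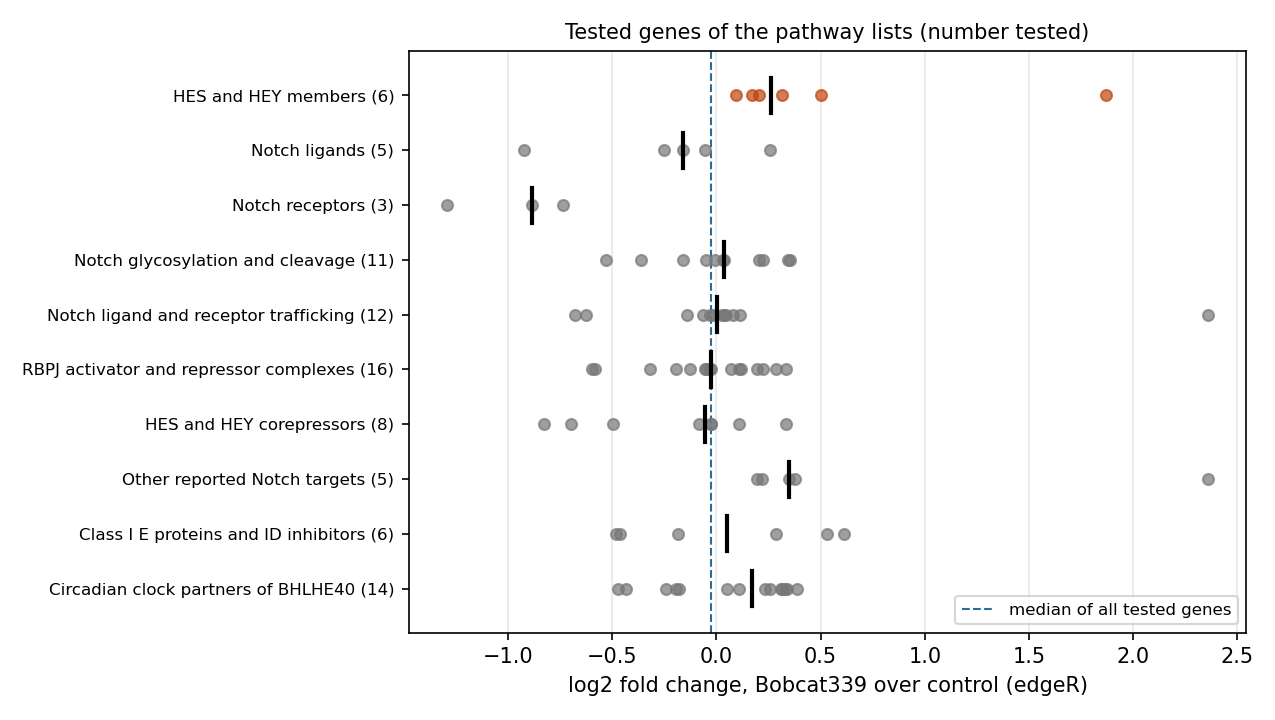
Log2 fold change of Bobcat339 over control for each tested gene of the family and of the pathway lists, with the number tested in brackets, black bars for the median of a list and a dashed line for the median of all tested genes (−0.02). The 6 tested HES and HEY genes lay between 0.10 and 1.87 and the 3 tested receptors between −1.29 and −0.74. Of any list 0 genes were called. The receptors NOTCH1 and NOTCH4 had enough reads for the test only through the controls, and HES2 was picked on this contrast.

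Other reported Notch targets had 5 tested genes of 8, 0 called and all 5 above 0 (median 0.35). DTX1, with the limit given above, was among them. CCND1, with 14 and 12 counts with Bobcat339 and 12 and 8 counts in the control, also had enough reads only through the Bobcat339 libraries. The most abundant were MYC, at 231 and 272 FPKM with Bobcat339 and 251 and 172 FPKM in the control, and the cell cycle inhibitor CDKN1A, at 36.8 and 65.5 FPKM with Bobcat339 and 29.9 and 47.7 FPKM in the control. Both overlapped between the groups, and NRARP, a feedback inhibitor of Notch, had 1 count in Bobcat339 library 1 and 0 in the other 3 libraries.

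Other bHLH classes were examined because HES, HEY and ID proteins bind or block them. The inhibitor ID3 was the most abundant, at 88.7 and 178 FPKM with Bobcat339 and 74.7 and 107 FPKM in the control. As for HES2 and most other tested members, the highest library was Bobcat339 2. The E protein TCF12 stood at 1.97 and 1.92 FPKM with Bobcat339 and 1.72 and 2.63 FPKM in the control. Of 7 E protein and ID genes 6 were tested and 0 called, 3 above 0 and 3 below. Of 19 proneural and lineage bHLH genes in the table, 11 were tested and 0 called, 3 above 0 and 8 below (median −0.09). Their most abundant members were MESP1 (log2 fold change −0.01) and NEUROG2 (−0.18). Among close relatives of the family, BHLHE22 (−0.57) and HELT (−0.71) were the only 2 of 6 with enough reads, and 0 were called.

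The most abundant clock genes connected with BHLHE40 stood well above BHLHE40 itself per length. NFIL3 stood at 51.6 and 58.7 FPKM with Bobcat339 and 35.3 and 57.3 FPKM in the control, and CLOCK, the activator whose targets BHLHE40 represses, at 47.1 and 48.1 FPKM with Bobcat339 and 37.7 and 49.4 FPKM in the control. Of 17 clock genes in the table, 14 were tested and 0 called, 9 above 0 and 5 below (median 0.17).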

How the data were processed

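Per the labels' protocols, TRIzol RNA was made into Smart-seq2 libraries, which do not mark strand. The authors deposited raw read counts and FPKM per gene; build Sscrofa10.2 and the tools HTSeq, HISAT2 2.0.5, DESeq2 1.16.1 and Trimmomatic stand, without roles, among the submitters' processing notes. The deposited coordinates are printed; 98.8% of 14155 comparable symbols, and all 10 members, overlap the same-named RefSeq gene of Sscrofa11.1. The strand setting of the counting was in none of the sources used here. Titles gave the groups.

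Counts were fitted with edgeR 4.0.16 in R 4.3.3 (filterByExpr, minimum count 10, TMM, glmQLFit, glmQLFTest, Benjamini-Hochberg at 0.05), leaving 18481 rows with 99.7% of the counts. Intervals come from the fitted fold change and F statistic. FPKM served for levels between genes. On simulated counts with 103 genes changed 4-fold, edgeR called 85.4%, and 12.4% of 97 changed 2-fold. The changed genes were drawn from the more abundant ones, and all simulated libraries had the same trend of spread. In the data 16.2% of tested genes differed over 2-fold within the control pair and 8.4% within the Bobcat339 pair. The simulated shares may therefore not hold for these libraries.

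Members and lists were chosen with earlier results of these data known. Of each list the 2 genes highest in FPKM were named, plus any called, except 1 gene that is not reported here; rows within 5000 bases of a member and the 3 nearest profiles (prior count 2) were named too. Alternatives were DESeq2 1.42.0, limma-voom (limma 3.58.1), other scalings and filters, the replicate block, each library left out, and log2(FPKM + 0.1) or log2(FPKM + 1).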

Additional observations from a re-analysis of the deposited data

How the results depend on the processing

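The count of genes called by edgeR was 0 with all 4 libraries, with DESeq2 size factors, with library totals only, with either other filter and with limma-voom. It was 5 with DESeq2 and between 0 and 586 with a library left out. The replicate number as a block gave 44 genes (23 higher, 21 lower). Within-group deviations of same-numbered libraries correlated at 0.159 over genes. The labels do not say what a shared number means, and with only 2 pairs whether it marks a pair cannot be decided. The cause of these shifts was not tested. HES1, HES2, HEY1 and HEY2 stayed above 0 in all 13 alternatives, from 0.04 to 1.26, 1.32 to 2.28, 0.03 to 0.45 and 0.31 to 0.35. For HES2, picked on this contrast, and HEY2 the groups did not overlap in CPM, so their sign could hardly change. With a library left out HES6 ran from −0.12 to 0.31 and BHLHE40 from −0.60 to 0.69. HES4, HES7 and HEYL had too few reads for their folds to be read.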
